A study of Homo sapiens with 24 samples.

Results

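HBL-1 is an established human line from a diffuse large B-cell lymphoma of the activated type, whose cells resemble B cells on the way to becoming antibody-secreting cells, and its RNA was sequenced. The comparison is between 3 control cultures harvested after 48 h and 3 harvested after 24 h, that is 6 of the 24 libraries of the series. All 6 cultures received the solvent DMSO alone, in RPMI-1640 medium with 20% foetal calf serum. The other libraries are DMSO cultures of 6 h and 12 h and cultures with 20 µM dimethyl fumarate (DMF), an electrophilic fumarate ester, in DMSO at each of the 4 times, with 3 libraries per group. HBL-1 is a single cell line, and the libraries of a group are labelled only as replicates, so p-values measure the spread between those libraries, which may be technical. Whether medium was renewed between 24 h and 48 h is not given in the sources used here, and cell number, glucose and oxygen were not analysed here. Length of culture and the handling of each harvest cannot be told apart in this design.

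A dense suspension culture uses up oxygen, glucose and amino acids and acidifies its medium. Low oxygen slows the prolyl hydroxylases that mark hypoxia-inducible factor (HIF) for degradation, and HIF then switches on glycolytic enzymes, pH regulators and mitophagy receptors. Scarce amino acids act through the kinase GCN2 and the transcription factor ATF4, which drives amino acid synthesis, transport and tRNA charging, while the kinase complex mTORC1, active when amino acids are plentiful, also raises ATF4 output together with ribosome production. In B-cell lymphoma these inputs meet lineage programmes run by PAX5, BCL6, IRF4 and NF-kB.

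The 6 libraries held between 28595410 and 35146994 expected counts, the read counts per gene estimated by RSEM, and between 15036 and 15366 genes with a count. Levels below are counts per 1000000 (CPM) scaled over these 6 libraries, and transcripts per 1000000 (TPM), which also divide by transcript length, where genes are set against each other. B cell markers were high: mean TPM went from 1785 at 24 h to 1819 at 48 h for CD79B, from 1493 to 1461 for CD79A and from 381 to 254 for MS4A1. The summed TPM of 7 T and NK cell markers lay between 0.60 and 0.90 over the 6 libraries and that of 7 myeloid markers between 2.51 and 4.36, with 1 and 2 of them at 0 throughout. The summed TPM of 7 epithelial and stromal markers was 20.6 to 22.4 at 24 h and 12.4 to 14.8 at 48 h. Of the 4 of them tested in the comparison below, only PECAM1 passed, with a log2 fold change of -0.97. EPCAM (log2 0.29), KRT8 (0.62) and KRT18 (0.18) did not pass. Replicate 2 of 48 h stood apart from the other libraries in its transcript make-up: its mean effective transcript length was 2850 bases, against 3015 and 3054 in the other 48 h libraries and 3088 to 3099 at 24 h, so counts are also given without it.

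Of 12750 genes tested with edgeR's quasi-likelihood test at an adjusted p under 0.05, 4039 (31.7%) were higher at 48 h and 4117 (32.3%) lower, in all 64.0% of genes. The 3 libraries of each time did not overlap for 69.3% of genes, 33.8% higher and 35.5% lower. At least 2-fold changes were found for 773 genes higher (6.06%) and 307 lower (2.41%). Any count of list members below is to be read against these shares, and the median log2 fold change over all genes tested was -0.003. On TPM, which shifted the median gene by -0.131, limma called 2428 genes higher and 4876 lower, so that 33.2% of calls were higher against 49.5% on counts. With TPM centred on the median gene it called 3733 higher and 3661 lower. On expected counts without replicate 2 of 48 h the numbers were 4424 and 4378. Fitting all 24 libraries together gave 1650 and 1646, and without the libraries of replicate 3 at 12 h, which stand apart, 4408 and 4389. In bulk RNA, fewer cells carrying a transcript and less of it per cell cannot be told apart.

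**Figure D1:**
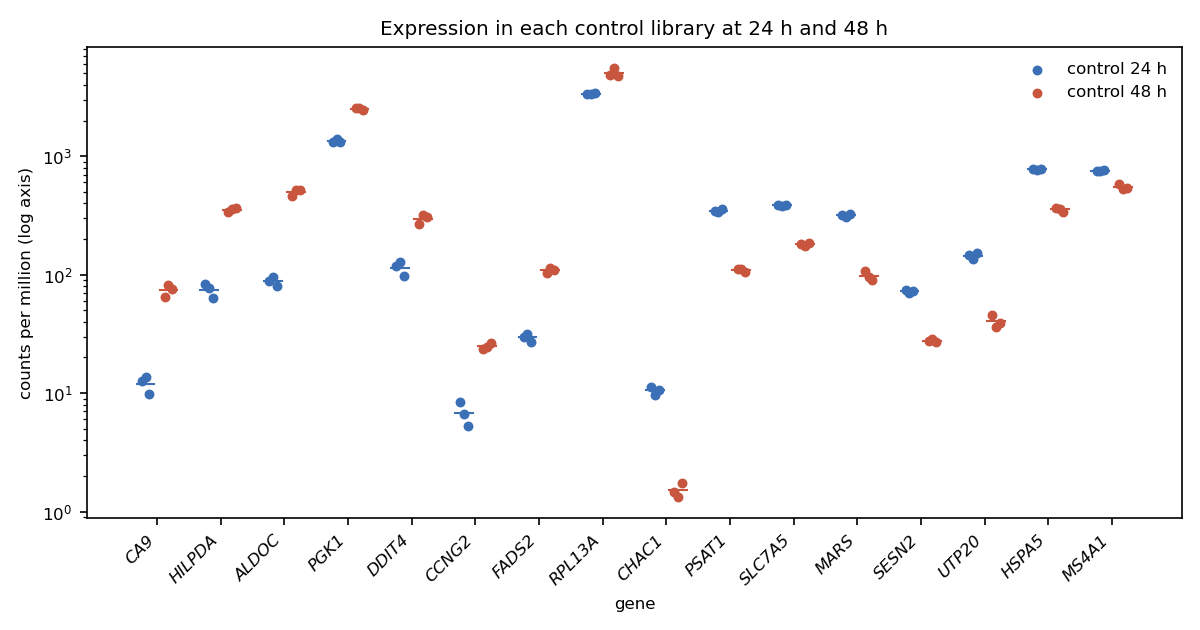
CPM (log axis) of 16 genes in each control library, 3 at 24 h and 3 at 48 h, with a line at each mean. The 24 h and 48 h libraries do not overlap for any gene shown: CA9 lies between 9.76 and 13.6 at 24 h and between 65.0 and 81.6 at 48 h, PSAT1 between 341 and 355 and between 106 and 113.

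Genes induced by low oxygen were higher on the second day almost throughout. Of 38 listed hypoxia targets outside glycolysis, 35 were tested and 33 were higher, none lower, with a median log2 fold change of 1.10. At least a 2-fold rise was found for 19 of them. On TPM 31 of 33 tested were higher (median 0.81), and without replicate 2 of 48 h again 33 of 35. CA9, a carbonic anhydrase on the cell surface that regulates pH, had 12.6, 13.6 and 9.76 CPM at 24 h and 65.0, 81.6 and 75.2 CPM at 48 h. Every 48 h library lay far above every 24 h library, a 6.16-fold rise (log2 fold change 2.62, SE 0.11, adjusted p = 5.1e-09).

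HILPDA, a lipid droplet protein that inhibits triglyceride lipase, had 83.9, 77.1 and 63.1 CPM at 24 h and 341, 358 and 365 CPM at 48 h. The groups were again apart, by 4.75-fold (log2 2.25, SE 0.09, adjusted p = 3.5e-09). BNIP3, a receptor for mitophagy, rose from 106, 118 and 95.4 CPM to 269, 276 and 258 CPM (log2 1.33, SE 0.07). PPFIA4, a liprin scaffold protein, rose by 2.36 on the log2 scale, P4HA2, a collagen prolyl hydroxylase, by 2.34, and ADM, the precursor of the peptide adrenomedullin, by 1.72. MXI1, a MAX-binding antagonist of MYC, rose by 1.41, NDRG1 by 1.33 and the histone demethylase KDM4B by 1.13. VEGFA, the vascular growth factor, rose less, by 0.65 (SE 0.06), from between 173 and 198 CPM to between 281 and 309 CPM. The 2 tested members that did not pass, both named because they were the exceptions and not by the rule for names, were STC2 (log2 0.11, adjusted p = 0.25) and LOX (log2 0.13, adjusted p = 0.79), the latter at most 0.59 CPM in any library. STC2 was at -0.01 on TPM, and LOX turned negative without replicate 2 of 24 h (-0.20) or replicate 1 of 48 h (-0.10).

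Regulators and subunits of HIF moved in both directions. Of 9 listed, 6 were tested, with 2 higher and 2 lower. EGLN1, the main HIF prolyl hydroxylase and itself a HIF target, rose by 0.73 (SE 0.06), from 61.3 to 71.2 CPM at 24 h to between 109 and 113 CPM, and ARNT, the partner of HIF subunits, by 0.48 (SE 0.06). HIF1A mRNA was lower, at 58.6, 55.6 and 59.3 CPM against 69.4, 64.8 and 66.8 CPM (log2 -0.21, SE 0.05, adjusted p = 0.0039), and so was EGLN2 (log2 -0.29). HIF is controlled mainly through its protein, which RNA-seq does not measure.

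Because the hypoxia targets moved together, their promoters are shown with the core of the hypoxia response element, ACGTG on either strand (CACGT on the other), in capitals. The motif was chosen after the expression values were known, and CACGTG, which holds it on both strands, is also the E-box bound by MYC and MAX family factors. The stretches come from RefSeq promoters (GRCh38.p14) in the 250 bases before the start site, written 5′ to 3′ on the strand of the gene, with up to 30 bases on either side.
CA9: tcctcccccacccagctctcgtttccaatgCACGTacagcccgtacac
PPFIA4: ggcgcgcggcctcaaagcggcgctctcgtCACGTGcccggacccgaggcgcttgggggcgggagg
BNIP3: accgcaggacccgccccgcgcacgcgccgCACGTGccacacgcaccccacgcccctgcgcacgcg
DDIT4: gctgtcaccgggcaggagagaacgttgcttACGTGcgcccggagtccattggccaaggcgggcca
MXI1: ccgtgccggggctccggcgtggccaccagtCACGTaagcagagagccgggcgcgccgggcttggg
ALDOC: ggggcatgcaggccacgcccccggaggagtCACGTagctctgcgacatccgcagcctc
SLC16A3: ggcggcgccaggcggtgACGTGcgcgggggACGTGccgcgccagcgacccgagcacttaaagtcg
PGK1: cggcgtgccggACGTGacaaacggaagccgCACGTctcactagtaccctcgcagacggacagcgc

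In order, these stretches lie at chr9:35673880-35673927 (plus strand), chr1:203026343-203026407 (plus), chr10:131982022-131982086 (minus), chr10:72273769-72273833 (plus), chr10:110210088-110210152 (plus), chr17:28576896-28576953 (minus), chr17:82228957-82229021 (plus) and chrX:78104035-78104099 (plus). All are upstream of an annotated start site of the gene named. Overlap with exons of other transcripts was not checked. A RefSeq promoter was found for 25 of the hypoxia targets that were higher, and 19 of these (76.0%) held the core. Among the glycolytic genes that were higher and had a promoter it was 14 of 21 (66.7%). Over all 9722 tested genes with a promoter the share was 29.2%, and over all 27305 promoters 21.7%. These shares describe letters in a window and are not evidence of binding.

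Glycolysis genes were also higher, by less than the other hypoxia targets. Of 27 tested, 22 were higher and 2 lower, with a median log2 fold change of 0.43, and 6 rose at least 2-fold. ALDOC, an aldolase isoform, had 89.0, 94.7 and 81.0 CPM at 24 h and 461, 520 and 515 CPM at 48 h. With no overlap it rose 5.66-fold (log2 2.50, SE 0.07, adjusted p = 7.4e-10), while ALDOA, the major aldolase, with far higher TPM (1886 at 24 h against 98.3 for ALDOC), rose 1.63-fold. PFKFB4, whose product sets the level of the phosphofructokinase activator fructose 2,6-bisphosphate, rose by 2.04 on the log2 scale, from between 31.9 and 42.9 to between 155 and 160 CPM. SLC16A3, the lactate exporter MCT4, rose by 1.62 and ENO2 by 1.27, PFKL by 1.08. PGK1, phosphoglycerate kinase, went from 1326, 1401 and 1310 CPM to 2559, 2537 and 2476 CPM (log2 0.91, SE 0.05). PDK1, which keeps pyruvate out of mitochondria by inhibiting pyruvate dehydrogenase, rose by 0.90.

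The other end of the list was flatter. LDHA, lactate dehydrogenase A, had 1967, 2085 and 1913 CPM at 24 h and 2275, 2373 and 2149 CPM at 48 h, a log2 difference of 0.19 that passed on counts (adjusted p = 0.0068) and not on TPM (adjusted p = 0.15). SLC2A1, the glucose transporter GLUT1, behaved alike, at 0.20 on counts (adjusted p = 0.015) and with an adjusted p of 0.37 on TPM. The 2 members that fell, named as the exceptions, were SLC16A1, the lactate and pyruvate carrier MCT1 (log2 -0.52, from between 218 and 230 CPM to between 148 and 162), and PDHA1, a pyruvate dehydrogenase subunit (log2 -0.23). The lactate carriers thus moved in opposite directions on counts and on TPM, SLC16A3 up and SLC16A1 down.

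**Figure D2:**
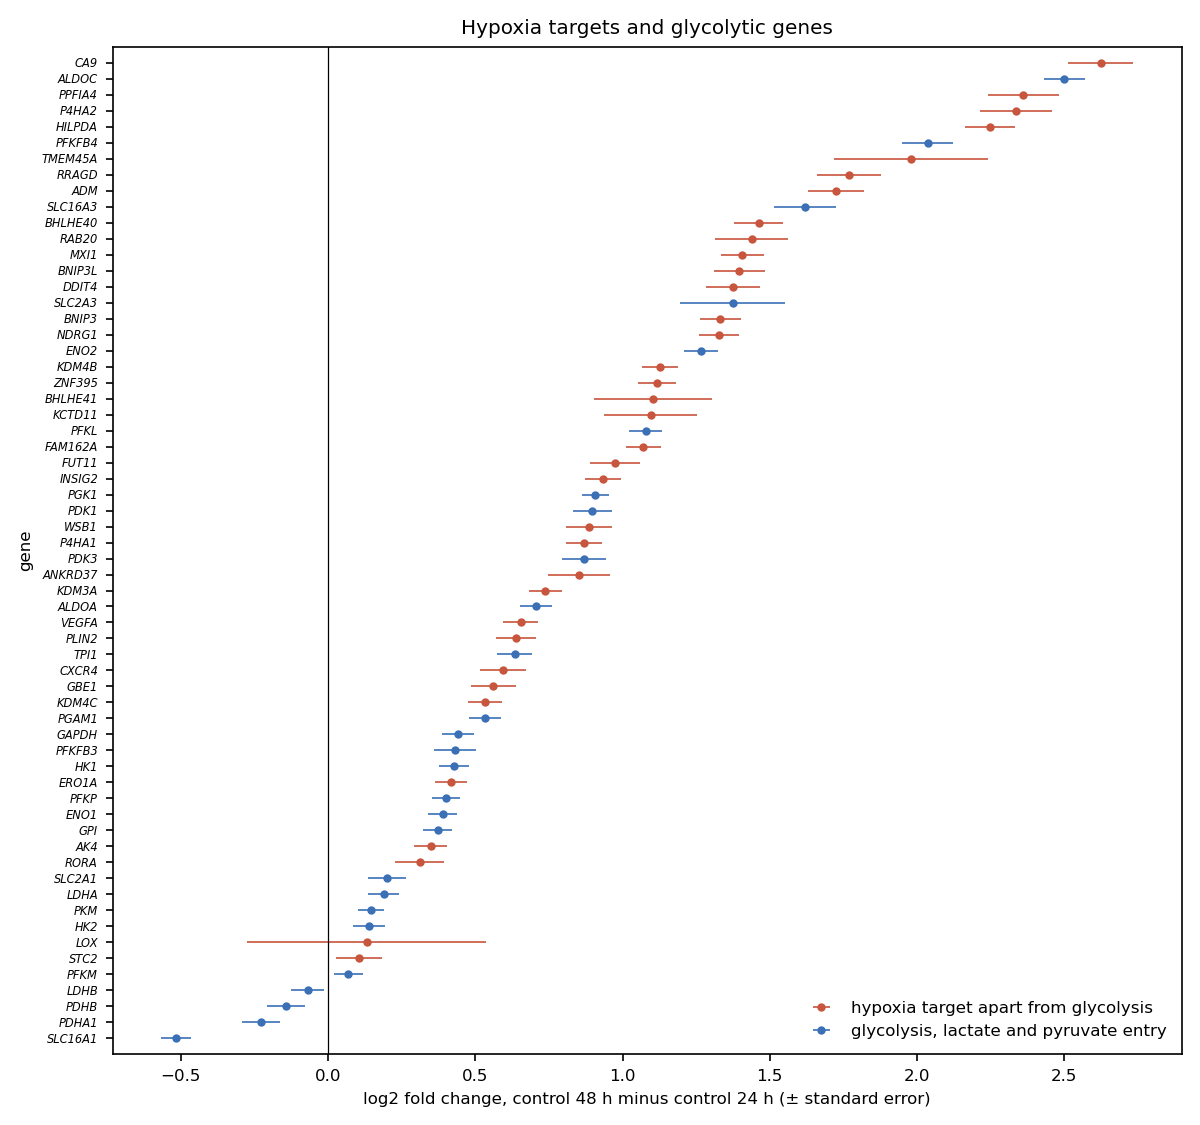
Log2 fold change (48 h minus 24 h, with standard error) of each tested hypoxia target and glycolytic gene, ordered by size. CA9 (2.62) and ALDOC (2.50) stand at the top, SLC16A1 (-0.52) at the bottom, and LOX has the widest error (0.41).

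Mitochondrial genes did not follow as a block. In the tricarboxylic acid cycle 12 of 22 genes were lower and 5 higher (median -0.15). IDH3A, a subunit of the NAD-dependent isocitrate dehydrogenase, fell from 154, 149 and 165 CPM to 89.9, 84.0 and 80.4 CPM (log2 -0.88, SE 0.06), OGDH by 0.57 and FH, fumarase, by 0.51. IDH2, the NADP-dependent isocitrate dehydrogenase of mitochondria, went the other way, from 55.1, 57.6 and 55.4 CPM to 137, 157 and 147 CPM (log2 1.39, SE 0.06, adjusted p = 5.1e-09). Of 51 nuclear genes of oxidative phosphorylation 13 were higher and 14 lower (median -0.02), shares below those of all genes. CYCS, cytochrome c, had the largest fall among them, by 1.05.

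Genes for making, importing and charging amino acids were lower at 48 h. Of 19 genes of serine, asparagine, proline and one-carbon synthesis 17 were lower and none higher (median log2 -0.49), of 15 amino acid transporters 12 were lower and 1 higher (median -0.66), and of 20 cytosolic aminoacyl-tRNA synthetases 17 were lower and 2 higher (median -0.58). On TPM the counts of members lower were 17, 12 and 18, and without replicate 2 of 48 h 17, 12 and 17. PSAT1, phosphoserine aminotransferase of serine synthesis, had 344, 341 and 355 CPM at 24 h and 113, 112 and 106 CPM at 48 h. Its groups were far apart, a 3.15-fold fall (log2 -1.65, SE 0.05, adjusted p = 1.0e-09). PSPH, the next enzyme, fell by 1.68, GPT2, a mitochondrial alanine aminotransferase, by 1.18, ALDH1L2, a mitochondrial folate enzyme, by 1.03, and ASNS, asparagine synthetase, by 0.85.

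Among transporters SLC6A9, the glycine transporter GLYT1, had 14, 14.3 and 13.7 CPM at 24 h and 3.03, 2.19 and 2.56 CPM at 48 h, a 5.43-fold fall (log2 -2.44, SE 0.11). SLC7A5, the large neutral amino acid transporter LAT1, had 387, 380 and 386 CPM and then 180, 174 and 186 CPM (log2 -1.09, SE 0.05). SLC7A11, the cystine transporter, fell by 1.20 and SLC1A4 by 1.10. The single transporter that was higher, SLC16A10, named as the exception, had 2.51 CPM at most (log2 0.55, adjusted p = 0.035). Its call was lost without replicate 1 of 24 h (adjusted p = 0.11), replicate 2 of 24 h (0.16) or replicate 1 of 48 h (0.11), and with DESeq2 (0.051) or all 24 libraries (0.16). Among synthetases MARS, for methionine, fell from 320, 309 and 326 CPM to 107, 96.2 and 89.9 CPM (log2 -1.70, SE 0.06), WARS, for tryptophan, by 1.42 and GARS, for glycine, by 1.27. DARS (log2 0.34) and QARS (log2 0.18) were the 2 that were higher, and QARS did not pass on TPM (adjusted p = 0.38).

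A list of ATF4, related stress factors and some targets did not move one way: of 12 tested, 4 were higher and 5 lower (median 0.01). The 4 higher were DDIT3, ATF5 (log2 0.33), VLDLR (0.57) and PPP1R15A (0.42). The 5 lower were ATF4, CHAC1, CEBPB, CEBPG (-0.54) and ATF3 (-0.37), the last named after its value was seen. ATF4 mRNA had 411, 411 and 426 CPM at 24 h and 303, 320 and 291 CPM at 48 h (log2 -0.45, SE 0.05, adjusted p = 6.2e-06). CHAC1, an enzyme that breaks down glutathione and is a common readout of ATF4, fell from 11.4, 9.56 and 10.7 CPM to 1.46, 1.34 and 1.74 CPM, a 6.90-fold fall (log2 -2.79, SE 0.13), and CEBPB by 0.99. DDIT3, the stress factor CHOP, moved the opposite way, from 9.96, 9.53 and 9.42 CPM to 18.1, 20.8 and 19.5 CPM (log2 1.01, SE 0.08, adjusted p = 3.7e-07). TRIB3, a pseudokinase induced by ATF4 and CHOP, had a log2 difference of -0.06 (adjusted p = 0.32) with overlapping groups.

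Promoters of amino acid genes that fell are shown for the core of the amino acid response element bound by ATF4 with C/EBP factors, TGATGNAA on either strand, in capitals, again chosen after the values were known and taken from the same RefSeq windows.
ASNS: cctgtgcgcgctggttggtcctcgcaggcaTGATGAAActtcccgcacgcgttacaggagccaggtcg
SLC1A5: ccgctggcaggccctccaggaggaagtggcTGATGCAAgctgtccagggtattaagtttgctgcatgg
GARS: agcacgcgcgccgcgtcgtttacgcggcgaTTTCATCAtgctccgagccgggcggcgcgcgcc

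These lie at chr7:97872439-97872506 (minus strand), chr19:46784874-46784941 (minus) and chr7:30594815-30594877 (plus). Among genes called lower with a promoter, the core was held by 3 of 10 in the synthesis list (30%) and 1 of 11 transporters (9.1%). It was held by 3 of 14 such synthetases (21.4%), against 2.2% of 9722 tested genes and 3.9% of all 27305 promoters. These shares rest on few genes and, as above, are not evidence of binding.

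Brakes and sensors of mTORC1 were mixed, with 8 of 19 higher and 4 lower (median 0.09). DDIT4, the mTORC1 inhibitor REDD1 and a hypoxia target, rose from 118, 128 and 98.0 CPM to 268, 319 and 306 CPM (log2 1.37, SE 0.09). RRAGD, a Rag GTPase that also belongs to the hypoxia list, rose by 1.77 and SESN3, a FOXO target, by 1.58, the latter from at most 0.63 CPM. SESN2, a leucine sensor and ATF4 target, fell from 74.7, 70.1 and 72.8 CPM to 27.8, 28.6 and 26.9 CPM (log2 -1.38, SE 0.06, adjusted p = 3.9e-09). The sestrins thus split on counts; on TPM SESN3 was tested only without a filter on low values, where the directions were the same (-1.43 for SESN2 and 0.17 for SESN3). In the glucose sensing set around the transcription factor MondoA, TXNIP, which restrains glucose uptake, rose by 0.50 (31.0 to 35.0 CPM at 24 h, 42.1 to 48.9 CPM at 48 h) and HBP1 by 1.19, while MLXIP, which encodes MondoA, fell by 0.60.

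Transcripts of ribosome biogenesis genes were lower while those of ribosomal proteins were higher. Of 50 genes for ribosome biogenesis and RNA polymerase I, 43 were lower and 3 higher (median log2 -0.68), and 10 fell at least 2-fold. UTP20, a large component of the small-subunit processome, had 146, 136 and 153 CPM at 24 h and 45.7, 36.3 and 39.2 CPM at 48 h, a 3.59-fold fall (log2 -1.84, SE 0.08, adjusted p = 5.1e-09). UTP15 fell by 1.66, RRS1 by 1.36, NOP2, a methyltransferase of the large ribosomal RNA, by 1.27 and RRP12 by 1.24. CD3EAP, a subunit of RNA polymerase I, fell from between 49.1 and 53.5 CPM to between 16.7 and 18.1 CPM (log2 -1.58). The 3 higher members, named as the exceptions, were POLR1D (log2 0.45), NOB1 (0.26) and TAF1D (0.27).

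Cytosolic ribosomal protein genes went the other way: 75 of 79 were higher and 1 lower, with a median log2 fold change of 0.37 and no member reaching 2-fold. Their share of expected counts was 9.95%, 9.83% and 9.95% at 24 h and 12.5%, 14% and 12.4% at 48 h. The highest share was that of replicate 2 of 48 h, the library with the shortest mean transcript length, and the other 48 h libraries also lay above all at 24 h. Without it, 75 of 79 were still higher and the median was 0.31. On TPM 70 were higher and 2 lower (median 0.23), and with offsets for GC content and length 71 were higher and 3 lower (median 0.25). RPL13A had 3371, 3332 and 3390 CPM and then 4850, 5507 and 4733 CPM (log2 0.58, SE 0.06), RPL12 rose by 0.67 and RPL3 by 0.57. RPS26, for which processed copies in the genome make the assignment of reads uncertain, was the single member that fell, from 464, 426 and 444 CPM to 287, 288 and 248 CPM (log2 -0.70). RPS15, FAU and RPL36A, named as exceptions, did not pass (log2 0.02, 0.07 and 0.10), and each had a negative difference on TPM (-0.12, -0.07 and -0.03, the first with an adjusted p of 0.012). Fitting all 24 libraries together, among them replicates 3 of 12 h with ribosomal protein shares of 26.7% and 21%, called 0 of 79 in either direction with edgeR, at the same median of 0.37.

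**Figure D3:**
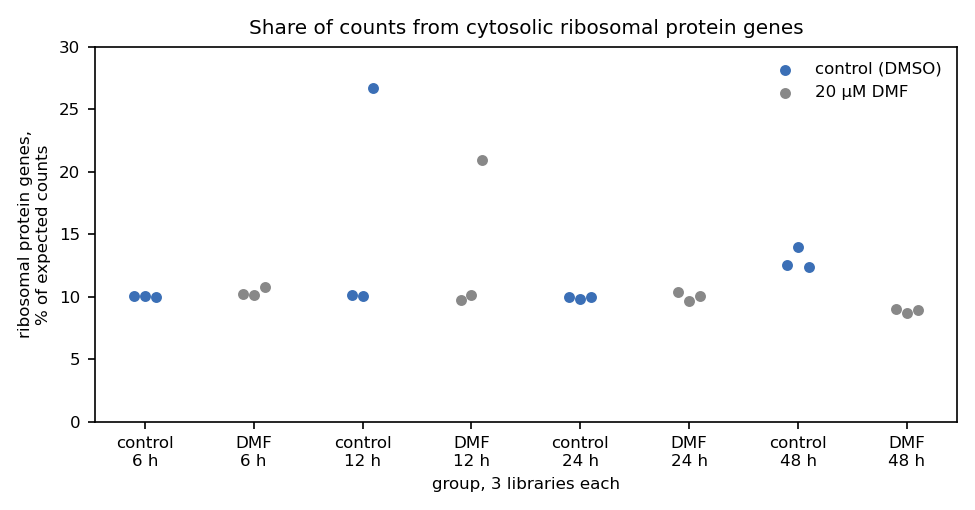
Percentage of expected counts from 79 cytosolic ribosomal protein genes in each of the 24 libraries, by group. The control libraries of 48 h (12.4% to 14%) lie above those of 24 h (9.83% to 9.95%), the DMF libraries of 48 h lie between 8.74% and 8.99%, and 1 library in each 12 h group stands far above its group.

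Translation factors split evenly, with 12 of 24 higher and 12 lower. EEF2, the elongation factor of translocation, rose from 4509, 4565 and 4511 CPM to 6317, 6676 and 6553 CPM (log2 0.52, SE 0.04), and EIF4G1, the initiation scaffold, fell from 937, 920 and 972 CPM to 522, 522 and 516 CPM (log2 -0.86, SE 0.04). EIF5A fell by 0.75. MYC itself, the main driver of ribosome production in lymphoma, had 299, 282 and 288 CPM and then 343, 333 and 327 CPM, a log2 difference of 0.21 (adjusted p = 0.0018) that did not pass on TPM (adjusted p = 0.13). Its biosynthetic targets were lower: SRM by 0.97, ODC1 by 0.88 and CAD by 0.76. Its antagonists MXD1 (log2 1.26, SE 0.12) and MXI1 rose.

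Replication genes were lower and mitotic genes less so. Of 39 genes for DNA replication and nucleotide supply 28 were lower and 4 higher (median -0.42). Of 40 mitotic genes 19 were lower and 8 higher (median -0.11), and of 25 G1/S genes 15 were lower and 6 higher (median -0.31). CLSPN, the checkpoint adaptor claspin, had 46.6, 42.0 and 47.1 CPM at 24 h and 18.9, 15.1 and 19.4 CPM at 48 h (log2 -1.34, SE 0.09). It was the only member of its list to fall at least 2-fold, and smaller falls included UHRF1 (log2 -0.88), MCM10 (-0.82), CDC6 (-0.81) and the ribonucleotide reductase subunit RRM2 (-0.74). CCNE2, cyclin E2, fell by 1.17 and CDC25A, the phosphatase that activates CDK2, by 1.03.

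MKI67, the proliferation marker Ki-67, had 796, 810 and 805 CPM and then 639, 517 and 671 CPM (log2 -0.40, SE 0.08, adjusted p = 0.00063), the lowest value being that of replicate 2. CDC20 fell by 0.50, the largest fall among the mitotic genes tested. CDC25C had the largest rise among them, by 0.83, and PTTG1, securin, named after its value was seen, rose by 0.42. Cyclin D3, CCND3, fell by 0.71, and CCND2 was 0.18 higher on counts (adjusted p = 0.0065) and not called on TPM (adjusted p = 0.36). Inhibitors of cyclin-dependent kinases differed among themselves. CDKN2D rose by 1.11, CDKN2C by 0.49, CDKN1A (p21) by 0.92 and CDKN1B (p27) by 0.71, while CDKN2B fell by 0.80 (adjusted p = 0.017) and CDKN2A did not pass (log2 0.28, adjusted p = 0.17). CDKN2A, CDKN2B and CDKN2C are named after their values were seen. CDKN1B went from 82.3, 82.1 and 78.7 CPM to 135, 130 and 132 CPM.

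Genes of quiescence and FOXO factors, transcription factors active when growth factor signalling is low, were higher in 16 of 22 and lower in 1 (median 0.65). CCNG2, an atypical cyclin of resting cells, had 8.36, 6.66 and 5.31 CPM at 24 h and 23.8, 24.3 and 26.6 CPM at 48 h (log2 1.88, SE 0.12). YPEL3 rose by 1.28, and BTG2, an antiproliferative p53 target, by 0.88. TSC22D3 (GILZ), a glucocorticoid-responsive gene named as the exception, fell by 0.65. Of 15 BCL2 family genes tested 8 were higher and 4 lower (median 0.23). The 4 lower, named as the exceptions, were BAX (log2 -0.365), BAK1 (-0.53), PMAIP1 (-0.446) and BIK (-0.58). BBC3, which encodes the pro-apoptotic protein PUMA, rose from 4.11, 3.76 and 3.44 CPM to 14.6, 18.1 and 17.3 CPM (log2 2.14, SE 0.11), and the anti-apoptotic BCL2, named after its value was seen, from 360, 360 and 336 CPM to 543, 467 and 583 CPM (log2 0.59).

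Chaperones fell in both main compartments. Among genes induced by unfolded protein in the endoplasmic reticulum 15 of 22 were lower and 1 higher (median -0.33), and of 17 heat shock genes 14 were lower and 1 higher (median -0.65). HSPA5, the chaperone BiP, had 787, 764 and 784 CPM at 24 h and 368, 362 and 338 CPM at 48 h, a 2.19-fold fall (log2 -1.13, SE 0.05, adjusted p = 5.1e-09). HYOU1 fell by 1.19, DNAJB11 by 1.14 and SDF2L1 by 1.01. In the cytosol DNAJA1 fell by 1.22, HSPH1 by 1.16 and HSP90AA1 by 1.03, from 1180, 1164 and 1182 CPM to 600, 589 and 538 CPM. CRELD2 (log2 0.26) and HSPB1 (0.19), named as the exceptions, were higher on counts and did not pass on TPM (adjusted p = 0.086 and 0.27), and both turned negative with offsets for GC content and length (-0.01 and -0.16).

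Genes of cholesterol synthesis, uptake and their control were higher in 23 of 27 and lower in 3 (median 0.53). SREBP2 switches on many of them when sterols in the membrane are low. That does not hold for every member, such as MYLIP (log2 1.15), counted among the higher, or ABCG1 below. MVD, of the mevalonate pathway, rose by 1.14, ACAT2 by 0.93, FDPS by 0.88, and INSIG1, the sterol-sensing retention factor, from 181, 198 and 180 CPM to 338, 338 and 338 CPM (log2 0.86, SE 0.05). HMGCS1 rose by 0.61. Among the 3 lower members, ABCG1 (log2 -0.68, at most 1.96 CPM) and SCAP (-0.13, adjusted p = 0.031) are named as exceptions. Fatty acid synthesis genes were mixed, 8 of 17 higher and 6 lower. The desaturases rose, FADS2 from 29.9, 31.6 and 27.2 CPM to 104, 115 and 109 CPM (log2 1.88, SE 0.07, adjusted p = 2.3e-09), FADS1 by 1.20 and SCD by 0.48, whereas FASN, fatty acid synthase, fell by 0.34.

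**Figure D4:**
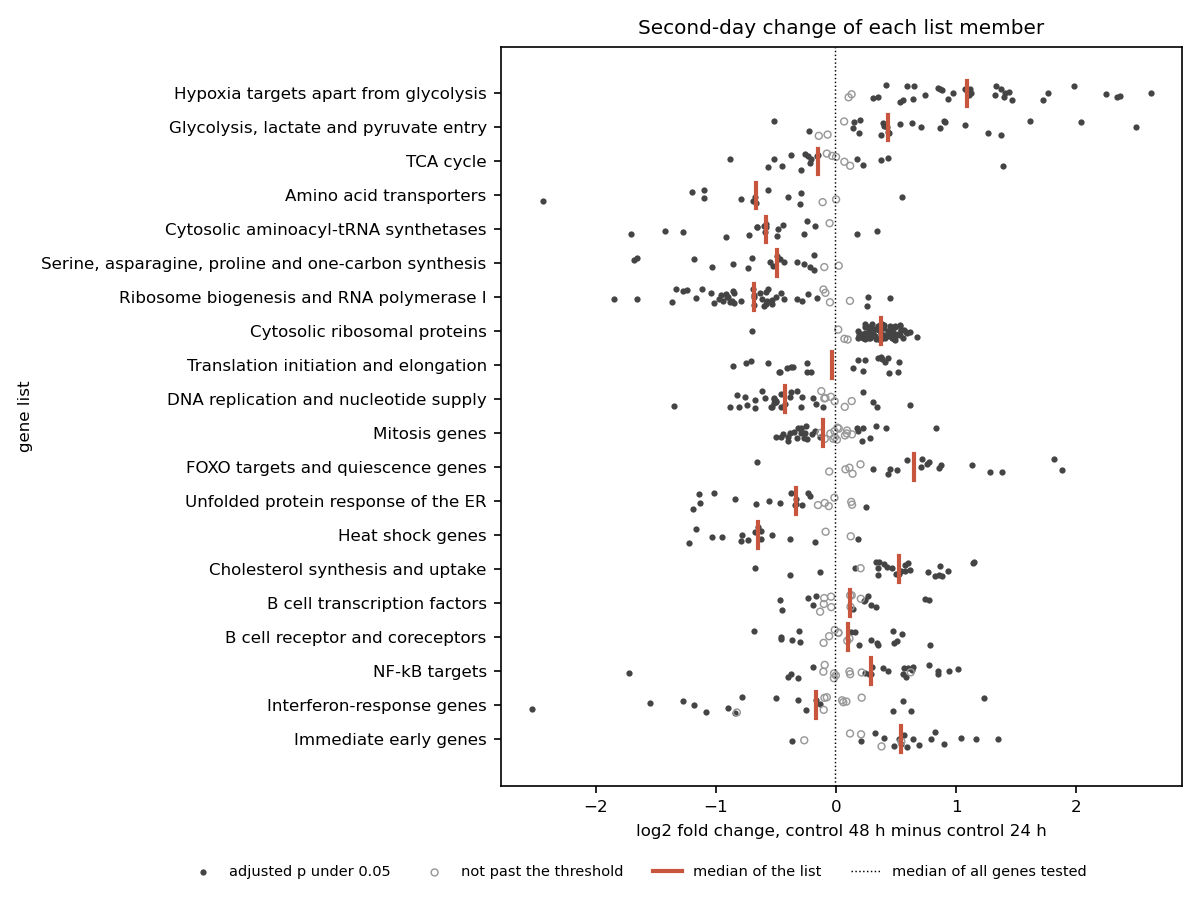
Log2 fold change (48 h minus 24 h) of each tested member of 20 gene lists, with the median of each list and that of all genes tested (-0.003). Filled points passed an adjusted p of 0.05, and medians run from 1.10 for hypoxia targets to -0.68 for ribosome biogenesis.

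Lineage genes changed by less. Of 22 B cell transcription factors 8 were higher and 5 lower (median 0.12), and of 24 genes of the B cell receptor and its coreceptors 11 were higher and 6 lower (median 0.10). On TPM the medians were -0.01 and -0.02, so neither list had a direction that held on both scales. POU2AF1, the B cell coactivator OBF1, rose from 593, 604 and 575 CPM to 925, 1006 and 1036 CPM (log2 0.74, SE 0.05), and BCL6, the germinal centre repressor, from 88.9, 90.6 and 81.6 CPM to 151, 136 and 159 CPM (log2 0.77, SE 0.07). Of 4 germinal centre markers tested, BCL6 and SERPINA9 (log2 0.54, SE 0.197) were higher, and LMO2 (-1.01, SE 0.275) and MYBL1 (-0.75, SE 0.293) were lower. The errors of SERPINA9, LMO2 and MYBL1 were far larger than that of BCL6. IRF8 rose by 0.34 and SPIB by 0.30. XBP1, needed for antibody secretion, fell by 0.46.

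Of 7 markers of activated B-cell-like lymphoma 4 were higher, 1 was lower and 2 did not pass, IRF4 among the latter. IRF4, a factor of that lymphoma type and of plasma cells, had 676, 680 and 677 CPM and then 771, 671 and 767 CPM (log2 0.12, adjusted p = 0.081), with replicate 2 of 48 h below the 24 h libraries and the other 48 h libraries above them. Without that library IRF4 passed, at 0.19 (adjusted p = 2.7e-05), and on TPM its difference was -0.00 (adjusted p = 1.0). PAX5 had a log2 difference of -0.13 (adjusted p = 0.14) on counts and -0.25 (adjusted p = 0.042) on TPM. PRDM1, the plasma cell regulator BLIMP1, stayed at or below 3.51 CPM (log2 0.21, adjusted p = 0.25). CD38 had a log2 difference of 0.14 (adjusted p = 0.094) that passed without replicate 2 of 48 h (0.20, adjusted p = 0.0044). Of 15 plasma cell surface and secretory genes tested, CD38 among them, 7 were higher and 4 lower (median 0.14). On TPM 5 of 14 were higher and 7 lower (median -0.06). DERL3 (log2 0.998), SDC1 (0.98), MZB1 (0.35) and SLAMF7 (0.33) were among those higher on counts. SEC11C (-0.66) and CD320 (-0.53) were among those lower. These genes were named after their values were seen.

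Surface genes moved in both directions. MS4A1, which encodes CD20, the target of rituximab, had 748, 756 and 766 CPM at 24 h and 587, 525 and 542 CPM at 48 h, a 1.37-fold fall with no overlap (log2 -0.46, SE 0.05, adjusted p = 6.6e-06). FCRLA fell by 0.68. Receptors with inhibitory motifs did not move one way. CD22 rose from 150, 159 and 147 CPM to 215, 216 and 218 CPM (log2 0.51, SE 0.05) and CD72 by 0.79, and PTPN6, the phosphatase SHP-1 that they recruit, by 0.55. FCRL2 (log2 -0.36) and FCRL3 (-0.46), named after their values were seen, fell. CD79B was 0.16 higher (adjusted p = 0.016), CD79A 0.09 (adjusted p = 0.20). With offsets for GC content and length both were negative (-0.09 and -0.19), and CD79A was at -0.03 on TPM. CD48 rose by 1.38 and TNFRSF13C, the BAFF receptor, by 1.01, while FCER2 (CD23) fell by 1.18 and FAS by 1.34, the last from 4.34, 4.23 and 4.49 CPM to 2.23, 1.40 and 1.57 CPM.

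In MHC class II presentation 9 of 14 genes were higher and 1 lower (median 0.24), led by HLA-DQB1 (log2 1.03, SE 0.06), from 42.8, 44.9 and 40.9 CPM to 81.8, 91.8 and 88.3 CPM. HLA genes are highly variable between people, so read assignment to a reference copy is uncertain. CIITA, their master regulator, was 0.30 higher and did not pass on TPM (adjusted p = 0.092). On TPM the list gave 3 higher and 2 lower.

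NF-kB signalling, which activated B-cell-like lymphoma depends on, was read from 31 targets, of which 17 were higher and 5 lower (median 0.30). LTA, lymphotoxin alpha, rose by 1.01, EBI3 by 0.94, the chemokine CCL22 by 0.85 and the inhibitor NFKBIE from 261, 261 and 259 CPM to 444, 498 and 462 CPM (log2 0.85, SE 0.05). NFKB2 rose by 0.56 and was, like DHX58 below, named after its value was seen. NFKBIA, the feedback inhibitor IkB-alpha, went down instead, from 140, 136 and 143 CPM to 110, 119 and 107 CPM (log2 -0.32, SE 0.05, adjusted p = 0.00022). The cytokines IL10 and IL6 also parted: IL10 rose from 11.8, 11.1 and 11.2 CPM to 17.2, 16.5 and 16.7 CPM (log2 0.56) and IL6 fell from 3.34, 2.31 and 2.05 CPM to 0.77, 1.0 and 0.56 CPM (log2 -1.72, SE 0.26). Among STAT3 targets 10 of 16 were higher and 3 lower, with PIM1, a kinase, at 2251, 2195 and 2185 CPM and then 3258, 3298 and 3354 CPM (log2 0.58, SE 0.04) and SOCS3 higher by 0.64.

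Of 25 interferon-response genes 13 were lower and 4 higher (median -0.17). MX1 had 19.6, 16.2 and 18.1 CPM and then 7.38, 7.39 and 7.45 CPM (log2 -1.28, SE 0.09), and XAF1 (log2 -2.53) and USP18 (-1.55) fell from at most 1.61 and 0.95 CPM. DHX58, a cytosolic RNA sensor, rose by 1.23. Immediate early genes were higher in 16 of 22 and lower in 1 (median 0.54): NR4A1 rose from 18.1, 15.6 and 14 CPM to 36.8, 40.9 and 43.6 CPM (log2 1.35, SE 0.09), EGR1 by 1.17 and ZFP36, which destabilises cytokine mRNAs, by 1.04. TFRC, the transferrin receptor, was lower by 0.22 (adjusted p = 0.0052).

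The genes with the largest changes outside these lists were mostly of low level. DUOXA2 (chr15:45114321-45118421, GRCh38, plus strand) had 0.13, 0.21 and 0.22 CPM at 24 h and 2.05, 1.89 and 1.83 CPM at 48 h (log2 3.34, SE 0.28), and its neighbour DUOX2 (chr15:45092650-45114344, minus strand), the hydrogen peroxide-producing oxidase that it matures, had 1.0, 0.71 and 0.51 CPM and then 4.25, 3.74 and 5.03 CPM (log2 2.56, SE 0.22). The annotated genes overlap at their starts, and whether reads were counted by strand is not given in the sources used here. SNCB (log2 3.12, with 24 counts in all at 24 h and 214 at 48 h), ATP8B3 (2.83) and CASKIN1 (2.75) were at most 4.05 CPM. On log2(TPM + 1) the differences of low genes were smaller, 1.42 for DUOXA2 and 1.49 for SNCB.

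At higher levels TMPRSS6, a membrane serine protease that cleaves hemojuvelin, rose from 21.8, 21.1 and 21.6 CPM to 88.1, 104 and 102 CPM (log2 2.19, SE 0.07, adjusted p = 1.7e-09). LRRC32 (GARP), a surface anchor of latent TGF-beta, rose by 1.73, WNT10A by 1.66 and GATM, the first enzyme of creatine synthesis, by 1.43. CCDC151 rose by 2.62 from at most 3.50 CPM. SDK2 (chr17:73334384-73644089, minus strand), a cell adhesion molecule, fell from 23, 20.2 and 22.7 CPM to 2.75, 2.83 and 3.26 CPM, a 7.41-fold fall (log2 -2.89, SE 0.10), and NOXO1, an organiser of the NADPH oxidase NOX1, by 2.64. AVPR2, the vasopressin V2 receptor, fell from at most 1.30 CPM by 3.12. BATF3 fell by 2.14, the fatty acid transporter SLC27A4 by 1.94, EHD3 by 1.82, MPEG1 (perforin-2) by 1.77 and the splicing factor SFPQ by 1.25, the last from 585, 581 and 622 CPM to 256, 246 and 249 CPM.

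The earlier control cultures show where the 24 h and 48 h levels stand, on CPM scaled over all 24 libraries and with no test. CA9 had 12.5, 13.6 and 13.9 CPM at 6 h, 2.42, 3.72 and 9.92 CPM at 12 h, 9.22, 11.9 and 12.9 CPM at 24 h and 61.0, 70.2 and 78.1 CPM at 48 h. ALDOC was already high at 6 h, with 287, 291 and 296 CPM, lowest at 24 h with 76.4, 84.0 and 89.3 CPM, and highest at 48 h with 433, 481 and 498 CPM. HILPDA went from 16.2, 17.6 and 18.9 CPM at 6 h and 15.3, 18 and 27.8 CPM at 12 h to 59.5, 72.7 and 79.2 CPM at 24 h, before the 320, 340 and 342 CPM of 48 h. PFKFB4 likewise had 3.11 to 3.56 CPM at 6 h and 30.1 to 40.5 CPM at 24 h, so that part of its rise lay within the first day. CHAC1 was lower at 6 h (3.78, 3.83 and 3.95 CPM) than at 24 h (9.02, 10.1 and 10.7 CPM), and SESN2 had 30.9 to 33.5 CPM at 6 h, 66.1 to 70.5 CPM at 24 h and 25.1 to 27.4 CPM at 48 h. The 48 h level of SESN2 thus lay below its 6 h level, and that of PSAT1, at 98.7 to 107 CPM against 262 to 267 CPM at 6 h, far below it. At 12 h the libraries of replicate 3 stand apart, which widens the 12 h range of several genes.

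The same interval was followed in cultures with 20 µM DMF, fitted with the control cultures in 1 model of 12 libraries, which asks whether the change from 24 h to 48 h differs with the compound. It shares the 6 control libraries with the comparison above. Of 13186 genes tested 2713 (20.6%) had a higher change in DMF than in control and 2317 (17.6%) a lower one, 38.1% in all. On TPM, where the median gene shifted by 0.251, limma called 5287 and 832, that is 86.4% of calls higher against 53.9% on counts. With TPM centred on the median gene it called 2256 and 2230. One DMF library of 48 h was shallow, with 2870751 expected counts, and without it the counts were 2627 and 2266.

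Hypoxia targets had a median second-day change of 1.10 in control and 0.50 in DMF, and 23 of 35 had a lower change with DMF, none a higher one. CA9 had a log2 change of 2.63 in control and 0.73 in DMF. Ribosomal protein genes had medians of 0.38 and -0.23, with 78 of 79 lower. Amino acid transporters had -0.65 and -0.05, with 11 of 15 higher in DMF, and tRNA synthetases -0.57 and -0.21, with 14 of 20 higher. DNA replication genes, at -0.41 and -0.44, had 5 higher and 12 lower of 39. Ribosome biogenesis genes had medians of -0.67 and -0.43, with 26 of 50 having a higher change in DMF and 7 a lower one, and within DMF 46 were called lower. The median over all genes was 0.011 in control and 0.02 in DMF. DMF cultures also began the interval from other levels: SESN2 lay between 45.8 and 47.1 CPM in DMF at 24 h, against 66.1 to 70.5 CPM in control.

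**Figure D5:**
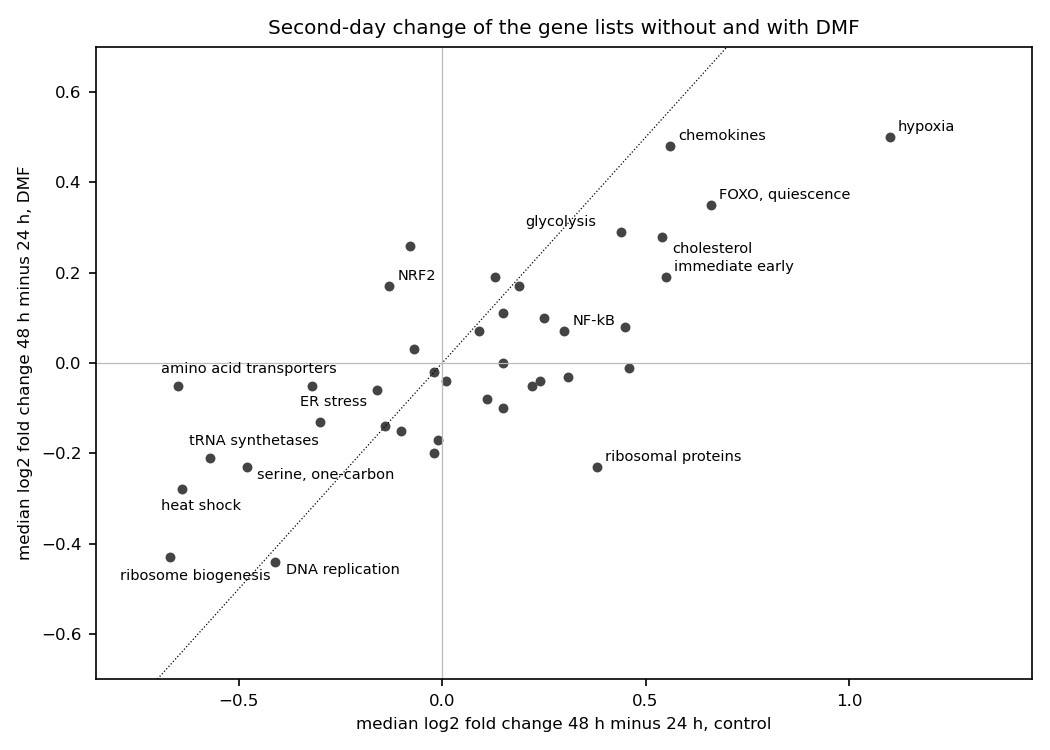
Median log2 fold change from 24 h to 48 h of each gene list in control cultures (horizontal axis) and in DMF cultures (vertical axis), from the fit of 12 libraries, with a dotted line of equal change. Hypoxia targets lie at 1.10 and 0.50, ribosomal proteins at 0.38 and -0.23, and DNA replication genes close to the line at -0.41 and -0.44.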

How the data were processed

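Total RNA of the cultures was extracted with a Qiagen RNeasy Mini kit, per the labels' protocols. HISAT2, HISAT and RSEM with GRCh38.p12 are named in the submitters' processing notes, and versions and strand setting are not given in the sources used here. The authors deposited per gene the expected counts, TPM and FPKM of each library. The deposited FPKM values were not used. The deposited TPM values served as a check.

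Expected counts were rounded to whole numbers, and the 6 libraries (28595410 to 35146994 counts) were fitted alone with edgeR 4.0.16 in R 4.3.3 (filterByExpr, TMM scaling, quasi-likelihood F test, Benjamini-Hochberg adjusted p under 0.05). Of 21831 genes listed in the deposited data, 12750 were tested. The standard error is the log2 fold change divided by the root of F. The second-day change in DMF minus that in control was tested on 12 libraries. Groups come from the sample titles, and lowly expressed genes carry the larger errors.

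TPM were tested with limma 3.58.1 on log2(TPM + 1), where genes needed at least 1 TPM in 3 libraries, so folds of low genes are understated there. Other alternatives were DESeq2 1.42.0, its size factors, no low-count filter, a pseudocount of 0.1, rRNA genes removed, a replicate block, all 24 libraries, the 12 controls, 22 libraries without replicate 3 of 12 h, and each replicate left out. Offsets for GC content and length and centred TPM were added after seeing the data.

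Genes were named by rule: the 15 highest and 15 lowest fold changes with non-overlapping groups and at least 1 CPM, the 10 smallest p in each direction, up to 8 members of each list by p, 30 panel genes, and the 5 smallest p in each direction of the DMF difference. Others are marked as exceptions or as named after their values were seen. The members, lists and promoter motifs were chosen with earlier results of these data known. Promoters were matched by symbol to RefSeq (GRCh38.p14). Some items are not reported here.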

Additional observations from a re-analysis of the deposited data

Results flagged for a closer look

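For 38 genes the second-day change with DMF was set against that in control. In 26 the difference itself passed an adjusted p of 0.05 in edgeR's quasi-likelihood test on 12 libraries, 10 with a higher and 16 with a lower change in DMF. With all 24 libraries fitted together 15 of these 26 lost the call, and on log2(TPM + 1) 5 did (ADM, BCL6, CDKN1B, IL10 and MYC), while CD79B turned its direction. Values are the log2 change in DMF minus that in control.

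Among oxygen and glucose genes the differences were -1.90 for CA9 (adjusted p = 3.1e-07), -1.44 for ALDOC (2.7e-08), -0.62 for BNIP3 (2.8e-05), -0.34 for ADM (0.033), -0.80 for DDIT4 (0.00053) and -0.67 for TXNIP (4.4e-05). The control change of each was a rise.

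Amino acid genes differed in the other direction, and each fell less in DMF than in control or not at all: 1.22 for PSAT1 (adjusted p = 1.7e-09), 0.61 for ASNS (7.6e-06), 1.13 for SLC7A5 (1.7e-09), 1.36 for WARS (1.7e-09) and 1.22 for SESN2 (3.3e-09).

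Growth genes gave -0.29 for MYC (adjusted p = 0.0034), 0.57 for MKI67 (0.0022) and -0.50 for CDKN1B (3.5e-05). B cell genes gave 0.60 for MS4A1 (3.8e-06), 0.30 for PAX5 (0.04), -0.25 for CD79B (0.033) and -0.35 for BCL6 (0.0043). MS4A1 had a log2 change of -0.45 in control and 0.15 in DMF. NFKBIA gave -0.63 (1.6e-05) and IL10 -0.51 (0.0044).

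The genes with the smallest p outside these lists gave 1.41 for EHD3 (adjusted p = 3.2e-09), 1.18 for LEF1 (3.2e-09), -1.05 for GATM (1.2e-08), -1.21 for GPER1 (9.5e-09), -1.25 for NUMBL (2.2e-08) and -1.31 for WNT10A (3.3e-09). LEF1, a transcription factor of WNT signalling, fell by 0.57 in control and had a change of 0.60 in DMF. No outlier test was made, since each group has 3 libraries.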

How the results depend on the processing

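The counts of genes higher and lower (4039 and 4117) came to 2428 higher on log2(TPM + 1), 2409 with a pseudocount of 0.1, 1650 and 1646 with all 24 libraries, and 1218 and 1176 with the 12 controls. These last fits ended 48 and 62 of the calls of 197 genes, among them LDHA, ALDOA and MKI67 in both and MS4A1, VEGFA and MYC with the 12 controls. The common dispersion was 0.003384 in the 6 libraries, 0.05209 in all 24 and 0.002118 without replicate 3 of 12 h. Genes at least 2-fold higher numbered 773 on counts and 180 on TPM, 365 with a pseudocount of 0.1, 179 without a filter and 288 centred. Those at least 2-fold lower numbered 307 on counts and 131 on centred TPM. Each number covers all calls of its own fit, and how many were the same genes was not counted. Leaving out each replicate gave 3565 to 4424 higher and 3655 to 4378 lower, at least 2-fold 743 to 854 and 286 to 332, and for the DMF difference 2237 to 2893 and 1872 to 2380. The DMF difference (2713 higher, 2317 lower) gave 5287 and 832 on TPM, 5211 and 804 with a pseudocount of 0.1, 4994 and 836 without a filter, and 222 and 197 with all 24 libraries. The cause was not tested. Other alternatives kept these counts within 1.5 times.

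Directions turned on uncentred TPM for CD79A (-0.03), RPS15 (-0.12), FAU (-0.07), RPL36A (-0.03), STC2 (-0.01), IRF4 (-0.00) and, without a filter, LOX (-0.01). With TPM centred on the median gene 0 named genes turned, 2 lost the call and 185 kept direction and call. With GC and length offsets they turned for CD79A (-0.19), CD79B (-0.09), RPS15 (-0.36), FAU (-0.14), HSPB1 (-0.16) and CRELD2 (-0.01). With 1 replicate left out LOX ranged from -0.20 to 0.45, turning without replicate 2 of 24 h or replicate 1 of 48 h (-0.10), and RPS15 from -0.03 (without replicate 2 of 48 h) to 0.06. The DMF difference of CD79B turned on TPM (0.03) and with the offsets (0.07). Over the named genes and all alternatives, 3507 values kept direction and call, 162 lost and 16 gained the call, and 28 turned. For the 26 DMF differences of single genes the same counts were 538 kept, 56 lost and 4 turned.

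Same-numbered 24 h and 48 h libraries showed no shared deviation in expression, with deviation correlations of -0.053, -0.063 and -0.131. Whether cultures of the same number shared a seeding is not given by the labels, and these values cannot decide it. A replicate block gave 3901 higher and 4018 lower, and 2624 and 2183 for the DMF difference. Genes under a few CPM are limited by their counts, as LOX shows.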

Other observations

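Lysosome genes moved in both directions, with 16 of 31 higher and 10 lower (median log2 0.15). Among those higher, NPC2, which carries cholesterol out of lysosomes, went from 9.64, 9.77 and 10.3 CPM to 24.5, 26.5 and 24.0 CPM (log2 1.33), and GAA, the lysosomal glucosidase for glycogen, rose by 1.22. Both were named after their values were seen. Of 29 autophagy genes 13 were higher and 9 lower (median 0.19).

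Targets of NRF2, the electrophile-sensing factor, were lower in 10 of 19 and higher in 5 (median -0.14) in control, and the median was 0.17 in DMF, with 11 having a higher change there. GCLC, which starts glutathione synthesis, fell from 127, 125 and 119 CPM to 85.7, 82.5 and 84.7 CPM (log2 -0.55) in control and had a change of 0.45 in DMF. It too was named after its value was seen.

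The fold change also moved with level and base composition. The 2968 genes with a mean under 5 CPM had a median log2 fold change of 0.29, those of 30 CPM and over (6004 genes) -0.09. Within the low genes the median was 0.13 for the lowest of 5 equal groups by GC content and 0.56 for the highest. The part of base composition in the results above was not tested beyond the offsets.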
